A study of Mus musculus with 16 samples.

Results

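The genes of bone morphogenetic protein (BMP) signalling and its ID targets were followed in RNA-seq counts from C2C12, an established line of mouse myoblasts whose cells fuse into multinucleate myotubes once serum is withdrawn. They are the 10 genes *Id1*, *Id2*, *Id3*, *Id4*, *Bmp4*, *Bmpr1a*, *Smad6*, *Smad7*, *Nog* and *Grem1*, picked by symbol through their Ensembl gene identifiers out of the 49585 genes of each count table, and all 10 were found in both tables. The first table compared wild-type (WT) cells with AMPK-KO cells, in which both catalytic AMPK subunits, *Prkaa1* and *Prkaa2*, were targeted with CRISPR-Cas9, both as myoblasts (day 0, d0) and on day 8 in low serum (d8). Each of these 4 groups had 2 libraries. The labels say neither whether the AMPK-KO libraries came from a single knockout line nor whether replicates were separate cultures, so p-values measure the spread between libraries, which may be technical. The study worked with independent AMPK-KO lines, and which line each library came from is not given in the labels. The second table held d0 cells of AMPK-KO C2C12 lines with FLAG-BirA-tagged *Tet2* knocked in at its own locus, either with the wild-type sequence (TET2-WT) or with a change that mimics phosphorylation by AMPK (TET2-S97E). There were 2 clones of each genotype and 2 libraries of each clone. All knock-in cells lack AMPK, so the knock-in table holds no AMPK-proficient library, and each table was normalized on its own.

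BMP ligands such as BMP4 bind type I and type II receptor kinases, among them BMPR1A, which phosphorylate SMAD1, SMAD5 and SMAD9. These enter the nucleus with SMAD4 and switch on targets that include the ID genes and the inhibitory *Smad6* and *Smad7*. ID proteins lack a DNA-binding domain, trap E proteins such as TCF3 and so keep MyoD-family factors from driving muscle genes, while Noggin (*Nog*) and Gremlin 1 (*Grem1*) are secreted proteins that bind BMPs and hold them off the receptors. In C2C12 cells, added BMP is a classic way to block myotube formation and to induce bone-type genes.

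Depth per library was 17883417 to 24663079 counts for WT and AMPK-KO cells and 19801909 to 37790358 counts for the knock-ins. Levels are given as raw counts or as CPM, counts scaled to library size with TMM factors within a table. The labelled line was checked with 10 muscle markers, of which 8 to 10 were above 3 counts in every library, *Des* being the most abundant in all 16. Of 4 haematopoietic markers, *Ptprc*, *Itgam* and *Cd3e* stayed at 0 to 2 counts and *Cd68* was at 18 to 134 counts. Of 6 bone markers *Runx2* was the most abundant in every library, while *Sp7*, *Alpl* and *Ibsp* stayed at 0 to 9 counts, *Bglap* at 0 to 16 and *Dmp1* at 0 to 59. *Prkaa1* was present in AMPK-KO cells at 79.6 and 78.0 CPM at d0 against 158 and 158 in WT cells, a log2 fold change of -1.01 ± 0.13 (SE, adjusted p = 0.0116, edgeR's quasi-likelihood test), so its transcript was reduced rather than absent. *Prkaa2* fell by 2.96 ± 0.47 on the log2 scale at d8 (adjusted p = 0.0190, edgeR), and its change at d0 was -2.43 ± 0.51 (adjusted p = 0.0527).

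Replicates of a group were not equally close. Over the 14329 genes tested in the first table, 1.22% differed by more than 4-fold between the 2 WT d0 libraries and 1.48% between the 2 AMPK-KO d8 libraries, against 0.363% at AMPK-KO d0 and 0.391% at WT d8. Among the genes described here, WT d0 replicate 1 held far more *Bmp4*, *Grem1* and *Smad6* than replicate 2. WT d8 replicate 1 likewise held far more *Grem1*, *Id3*, *Id1*, *Smad6* and *Nog* than WT d8 replicate 2. In AMPK-KO cells *Id3* was far lower in replicate 1 than in replicate 2 at d0, and *Id3*, *Smad6*, *Smad7* and *Grem1* were far higher in replicate 1 at d8.

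**Figure D1:**
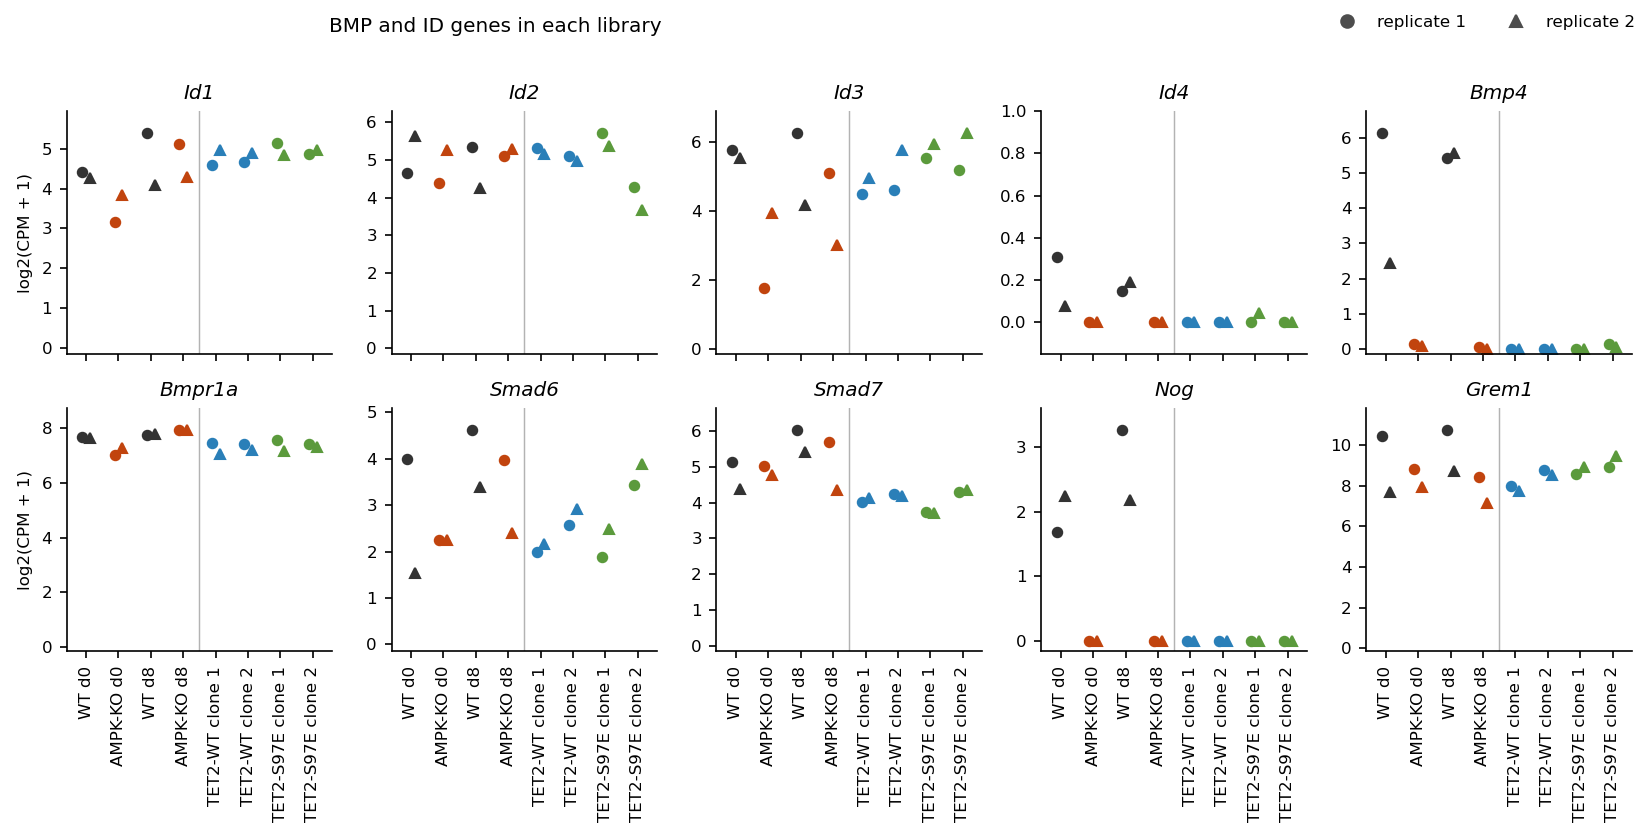
Level of each of the 10 genes in all 16 libraries, as log2(CPM + 1), with a vertical axis of its own for each gene. Circles are replicate 1 and triangles replicate 2, and the grey line separates the 2 tables, which were normalized separately. *Bmp4* and *Nog* stand out in the 4 WT libraries and are at 0 to 0.105 CPM in the 12 others, and *Id4* is near 0 throughout.

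Per length, *Grem1* was the most abundant of the 10 genes in 15 of the 16 libraries, and *Bmpr1a* led in the remaining one, AMPK-KO d8 replicate 2. In TPM, which corrects for exon length as well as depth, the WT d0 means were 700 for *Grem1*, 112 for *Bmpr1a*, 98.6 for *Id3*, 60.4 for *Bmp4* and 59.3 for *Id1*. *Id2* followed at 52.3 TPM, *Smad7* at 21.5, *Smad6* at 9.55 and *Nog* at 6.21. *Grem1* stood clear of *Bmpr1a* in both WT d0 libraries, at 1228 and 172 TPM against 117 and 108. *Bmpr1a* and *Id3* overlapped, and so did *Id1* and *Id2*. *Bmp4*, at 114 and 6.76 TPM, overlapped every other member except *Grem1* and *Id4*, so its place in the order is not settled. *Smad7* was below *Id2* in both libraries, and *Smad6* overlapped both *Smad7* and *Nog*. *Id4* was at 0 to 5 counts in all 16 libraries, too few to test anywhere.

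The comparison of AMPK-KO with WT cells asked which genes differed between them at d0 and at d8. *Bmp4* and *Nog* were lost in AMPK-KO cells at both days, to between 0 and 2 counts. At d0 these were the only 2 of the 9 members tested that passed an adjusted p under 0.05 in edgeR, both lower. Of all 14329 genes tested, 2.83% were called lower and 3.52% in either direction. At d8 the count was again 2 of 9, both lower, against 3.98% called lower and 5.35% in either direction. In bulk RNA, fewer cells that express a gene and less RNA per cell cannot be told apart.

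*Bmp4*, the ligand, had 1455 and 81 counts in WT d0 libraries, and 2 and 1 counts in AMPK-KO d0 libraries. By d8 WT libraries held 771 and 990 counts of it, against 1 and 0 counts in AMPK-KO cells. The groups did not overlap on either day, although the WT d0 replicates themselves stood at 70.1 and 4.39 CPM. The summed WT level was 529 times the AMPK-KO level at d0 (95% exact counting interval 181 to 2569) and 2012 times at d8 (361 to 79528), intervals that cover counting error only. The fitted log2 fold changes, which depend on the fit's prior count at levels this low, were -8.86 ± 1.60 at d0 (adjusted p = 0.0340) and -10.62 ± 1.80 at d8 (adjusted p = 0.0223, edgeR). Leaving out WT d0 replicate 1 gave -5.78 at d0 with an adjusted p of 0.0133 (edgeR). With only the 2 groups compared in the fit, the d0 call was lost (adjusted p = 0.0718, edgeR). The d0 call was lost without AMPK-KO d0 replicate 1 (adjusted p = 0.214) or replicate 2 (0.178) and without WT d8 replicate 1 (0.0714) or replicate 2 (0.0712), and the d8 call without WT d8 replicate 1 (0.0799) or replicate 2 (0.0823) and without AMPK-KO d8 replicate 1 (0.111) or replicate 2 (0.0773). *Bmp4* lies on chromosome 14 of GRCm38, from 46383520 to 46390669 on the minus strand, and 2 annotated genes on the other strand, *Gm15217* and *Gm15222*, overlap it. Whether the counting used strand is not stated, so reads from those genes could be among its counts. *Gm15217*, itself protein-coding, had 11 and 0 counts at WT d0 and 1 and 8 at WT d8, and 0 in each AMPK-KO library.

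The 250 bases upstream of the RefSeq start of *Bmp4* (RefSeq, GRCm38.p6, chr14:46390670-46390919, minus strand) are shown because this was the ligand that AMPK-KO cells had lost. Capitals mark CANNTG, the E-box letters that bHLH factors such as MyoD recognise, searched on both strands. GGCGCC and CAGAC, letter runs described in SMAD-bound elements, were searched on both strands as well and were not in this window.
Bmp4: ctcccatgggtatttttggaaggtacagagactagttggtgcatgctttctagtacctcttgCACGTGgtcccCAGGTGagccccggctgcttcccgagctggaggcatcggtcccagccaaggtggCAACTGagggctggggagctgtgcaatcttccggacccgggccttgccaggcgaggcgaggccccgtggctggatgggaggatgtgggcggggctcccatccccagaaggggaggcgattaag
The window held 3 CANNTG matches, 11 CpG dinucleotides and 63.2% G and C. Of all 32851 promoters of the same length, 66.2% held CANNTG, 9.59% GGCGCC and 42.2% CAGAC, and the medians were 6 CpG and 52.4% G and C. A match describes letters and not a bound site.

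*Nog*, which encodes Noggin, had 46 and 69 counts at WT d0 and 156 and 75 counts at WT d8. It had 0 counts in all 4 AMPK-KO libraries. The groups were thus fully apart, and set against a floor of 3 counts per AMPK-KO library *Nog* was at least 20.05-fold lower at d0 and at least 45.2-fold lower at d8. The fitted log2 fold changes, which are no bounds, were -8.94 ± 1.22 at d0 (adjusted p = 0.0299) and -9.96 ± 1.17 at d8 (adjusted p = 0.0173, edgeR). The d0 call was lost without WT d0 replicate 1 (adjusted p = 0.0636) or replicate 2 (0.0683), without AMPK-KO d0 replicate 1 (0.133) or replicate 2 (0.109) and without WT d8 replicate 1 (0.0524). The d8 call was lost without WT d8 replicate 1 (0.0707) or replicate 2 (0.0503) and without AMPK-KO d8 replicate 1 (0.0549). *Nog* is a single exon of 1695 bases on chromosome 11 of GRCm38, from 89300638 to 89302332 on the minus strand, with no overlapping gene.

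*Grem1*, the other antagonist, did not pass the test on either day. It had 1394 and 206 CPM at WT d0 against 453 and 240 CPM at AMPK-KO d0. At d8 it had 1704 and 418 CPM in WT cells against 345 and 140 CPM in AMPK-KO cells. The groups overlapped at d0, where the AMPK-KO libraries lay between the 2 WT libraries, and were apart at d8, where both WT libraries were higher. AMPK-KO against WT gave a log2 fold change of -1.21 ± 0.98 (adjusted p = 0.537) at d0 and one of -2.13 ± 1.00 (adjusted p = 0.259, edgeR) at d8, and the d0 value turned to 0.74 without WT d0 replicate 1. Without WT d8 replicate 1 the d8 value was -0.77 (adjusted p = 0.779), and leaving out AMPK-KO d8 replicate 1 gave -2.90, so the size of the d8 difference rests on single libraries. *Grem1* lies on chromosome 2 of GRCm38, from 113746164 to 113758646 on the minus strand, with no overlapping gene.

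The 250 bases upstream of its RefSeq start (RefSeq, GRCm38.p6, chr2:113758649-113758898, minus strand) are shown beside those of *Bmp4*, as the antagonist among the 10 genes that was measured in every AMPK-KO library. Capitals mark the GGCGCC and the CAGAC match, 1 of each. No CANNTG was found in it.
Grem1: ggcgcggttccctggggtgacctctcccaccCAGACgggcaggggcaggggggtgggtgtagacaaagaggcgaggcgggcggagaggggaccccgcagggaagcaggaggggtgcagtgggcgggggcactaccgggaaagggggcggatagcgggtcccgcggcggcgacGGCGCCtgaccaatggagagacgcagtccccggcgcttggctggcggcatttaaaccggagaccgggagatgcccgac
This window held 24 CpG dinucleotides and 72.0% G and C, more of both than the *Bmp4* window and than the medians of all promoters.

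Beside *Nog* and *Grem1*, a list of 17 further extracellular antagonists and modulators was examined, 12 of which could be tested. At d0, where 2.83% of all genes tested were called lower (3.98% at d8), 2 were called lower and none higher. They were *Tll1*, a protease that cuts the antagonist Chordin (log2 fold change -8.32 ± 1.35, adjusted p = 0.0461), and *Fst*, follistatin, which binds activins and BMPs (-7.70 ± 1.59, adjusted p = 0.0497). At d8, *Tll1* (-9.16 ± 1.30, adjusted p = 0.0267) and *Chrdl1*, a Chordin-like antagonist (-10.95 ± 2.04, adjusted p = 0.0304), were called lower, again with none higher (edgeR). *Tll1* had 60 and 18 counts at WT d0, 79 and 56 at WT d8 and 0 in each AMPK-KO library, at least 13.0-fold and 26.0-fold lower with AMPK-KO at the floor. *Fst* had 622 and 59 counts at WT d0 against 1 and 2 in AMPK-KO cells, a ratio of 235 (95% counting interval 79.9 to 1141), and 1823 and 1530 against 38 and 148 at d8. Without WT d0 replicate 1 the d0 values were -5.33 for *Fst* (adjusted p = 0.0936) and -7.34 for *Tll1* (adjusted p = 0.0915), and with the replicate number as a block *Fst* had an adjusted p of 0.0654 (edgeR). *Chrdl1* had 484 and 8 counts at WT d0, 3642 and 3640 at WT d8 and 0 to 7 counts in AMPK-KO cells. WT d0 replicate 1 was thus the higher of its pair for *Fst* and *Chrdl1*, as it was for *Bmp4*. The 12 genes had a median of -0.64 on both days on the log2 scale, and all genes tested one of -0.00 (d0) and 0.04 (d8). Setting the genes at 0 in AMPK-KO cells to their bounds could not move the medians of these 12 genes or of the members, since the bounds lay below them. The median of the 3 further BMP ligands tested went from -2.12 to -0.55 at d0 and stayed at -4.03 at d8.

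The low counts of *Bmp4* and *Nog* were also found in the knock-in lines. *Bmp4* had 0 counts in all 4 TET2-WT libraries and in TET2-S97E clone 1, and 2 and 1 counts in TET2-S97E clone 2. *Nog* had 0 counts in all 8. *Fst*, in contrast, had 0 to 1 counts in TET2-WT libraries and 6 and 1 in TET2-S97E clone 1, but 60 and 27 in TET2-S97E clone 2. Of the 12098 genes with at least 10 counts in each of the 4 WT libraries, 92 (0.760%) were at 3 counts or fewer in all 12 AMPK-KO and knock-in libraries. These included 2 of the 9 members that met the WT minimum, *Bmp4* and *Nog*. The modulator gene *Tll1* was also among the 92. The pattern was looked for after the counts of *Bmp4* and *Nog* had been seen. Because every knock-in line carries the AMPK deletion and no line had AMPK restored, the deletion and the derivation of the lines cannot be told apart.

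**Figure D2:**
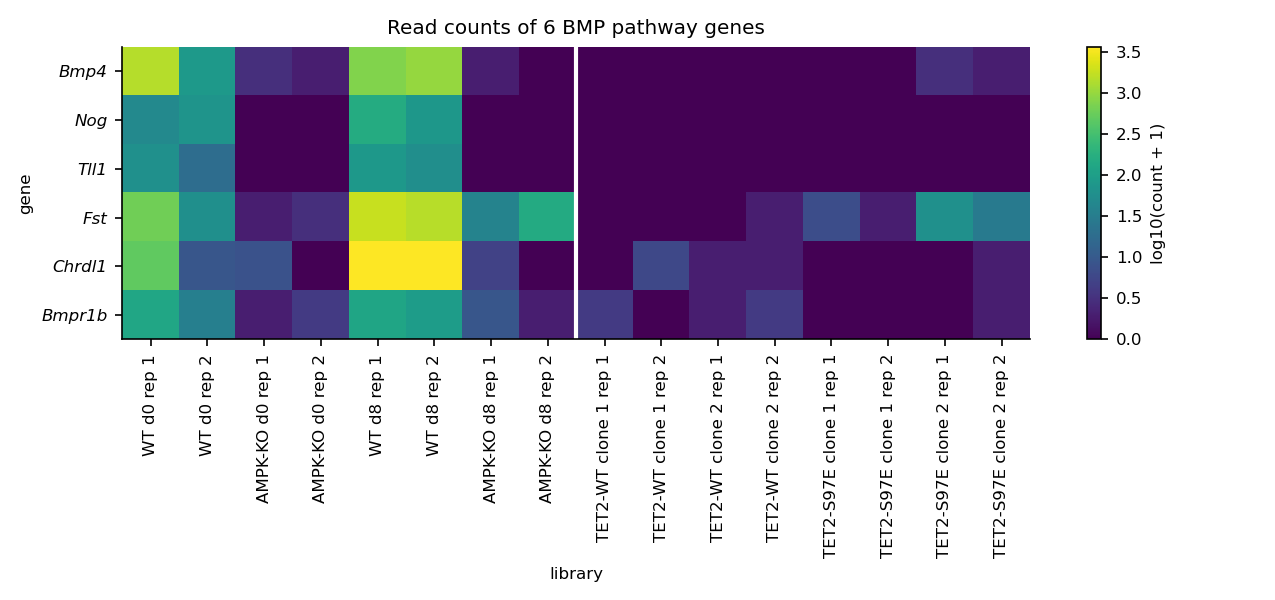
Read counts of 6 BMP pathway genes in all 16 libraries on a log10(count + 1) colour scale, with a white line between the 2 tables. *Nog* and *Tll1* are at 0 in all 12 AMPK-KO and knock-in libraries, *Bmp4* at 0 to 2 counts, and *Fst* is at 38 and 148 counts at AMPK-KO d8. *Bmpr1b* was added to the plot after its values were seen.

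The nearest protein-coding genes that do not overlap *Bmp4* or *Nog* were read for comparison, a choice made after their values were seen. *Cdkn3* and *Cnih1*, 370 and 385 kb from *Bmp4* on one side, had log2 fold changes of -0.50 ± 0.63 and -0.16 ± 0.21 at d0 (adjusted p = 0.714 and 0.710). *Ddhd1* and *Fermt2*, 725 and 853 kb away on the other side, had -0.06 ± 0.29 and -0.58 ± 0.24 (adjusted p = 0.939 and 0.227, edgeR). None of these 4 genes was called at d8 either. Around *Nog*, *Ankfn1* (87.9 kb away) and *Gm525* (208 kb) had at most 4 counts in any library, *Dgke* (234 kb) had a log2 fold change of 0.08 ± 0.27 at d0 (adjusted p = 0.912) and *Pctp* (680 kb) one of 1.95 ± 0.53 (adjusted p = 0.0996, edgeR).

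Among the other ligands, 13 genes were listed and 3 had enough counts to test. None was called at d0, where the lowest adjusted p was that of *Bmp8a* (log2 fold change 2.53 ± 1.13, adjusted p = 0.261, edgeR). At d8, *Gdf5* (log2 fold change -4.03 ± 0.86, adjusted p = 0.0448) and *Bmp8a* (-3.43 ± 0.75, adjusted p = 0.0474, edgeR) were lower in AMPK-KO cells. Of all genes tested, 3.98% were called lower at d8. *Gdf5* had 19 and 74 counts at WT d8 against 3 and 3, and *Bmp8a* 22 and 38 counts against 3 and 3, so both were rare transcripts beside *Bmp4*.

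*Bmpr1a*, the type I receptor, was expressed in every library and was not called by edgeR at d0 or d8. DESeq2 called it at d0 (adjusted p = 0.0324) but not at d8. *Gm17110*, an antisense gene on the other strand, overlaps *Bmpr1a*. Whether the counting used strand is not stated, so its reads could be among the counts of *Bmpr1a*. *Bmpr1a* stood at 203 and 199 CPM at WT d0, 129 and 153 CPM at AMPK-KO d0, 214 and 222 CPM at WT d8 and 243 and 241 CPM at AMPK-KO d8. The AMPK-KO libraries were thus below both WT libraries at d0 and above both at d8. AMPK-KO against WT gave a log2 fold change of -0.51 ± 0.15 (adjusted p = 0.123) at d0 and one of 0.15 ± 0.15 at d8 (adjusted p = 0.586, edgeR). The difference between these effects, 0.66 ± 0.21, had an unadjusted p of 0.0165 and an adjusted p of 0.892, and none of the 9 members was called for such a difference (0.0% of the 14329 genes). Over all genes, 729 had an unadjusted p under 0.05 for it, and DESeq2 called 60 genes, no member among them.

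Of 10 further receptors and co-receptors, 9 were tested and 2 were lower in AMPK-KO cells at d0. *Bmpr1b*, another type I receptor, fell by 5.25 ± 1.00 on the log2 scale at d0 (adjusted p = 0.0382) and by 4.79 ± 0.91 at d8 (adjusted p = 0.0323, edgeR). Its 126 and 34 counts at WT d0 stood against 1 and 3 in AMPK-KO cells. *Rgma*, a BMP co-receptor, fell by 1.53 ± 0.29 at d0 (adjusted p = 0.0370), from 29.9 and 24.0 CPM to 10.6 and 8.08 CPM. *Bmpr1b* was the only one of the 9 called at d8. Of the 4 SMAD transducers, *Smad5* was lower at d0 (log2 fold change -0.75 ± 0.15, adjusted p = 0.0408) and *Smad1* at d8 (-1.23 ± 0.26, adjusted p = 0.0411, edgeR). *Smad1* read 70.7 and 51.2 CPM in WT against 26.9 and 25.1 CPM in AMPK-KO cells at d8, and with the replicate number as a block it was called lower at d0 too (-1.08, adjusted p = 0.0453, edgeR). In the activin and TGF-beta branch, none of 15 genes tested was called at d0 (lowest for *Tgif1*, a repressor of TGF-beta targets, at 0.81 ± 0.29, adjusted p = 0.174), and the ligand *Tgfb2* was lower at d8 (-1.82 ± 0.38, adjusted p = 0.0413, edgeR). With the block, *Ltbp1*, a latent TGF-beta binding protein, was called higher at d8 (0.65, adjusted p = 0.0430, edgeR). Over all 82 pathway and related genes other than the members, 59 were tested, and 7 were lower and none higher on each day, where 3.52% (d0) and 5.35% (d8) of all genes were called in either direction. All 7 calls at d0 were lost without either AMPK-KO d0 library, and all 7 at d8 without any 1 of the 4 d8 libraries. A fit of the 2 d0 groups alone lost the d0 calls of *Bmpr1b* (adjusted p = 0.0540), *Fst* (0.0610) and *Rgma* (0.0589, edgeR). It also lost those of *Smad5* (0.123) and *Tll1* (0.0699, edgeR). The d0 calls of *Bmpr1b*, *Fst*, *Smad5* and *Tll1* were lost without either WT d8 library too. Without WT d0 replicate 1 the d0 calls of *Myod1* and *Myog* were kept and the others lost, among them *Bmpr1b* (-4.16, adjusted p = 0.0969) and *Rgma* (-1.37, adjusted p = 0.111, edgeR). None of these values changed sign. The 59 had a median of -0.35 at d0 and of -0.48 at d8 on the log2 scale.

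The inhibitory SMADs did not pass the test on either day. *Smad6*, which blocks type I receptors of the BMP branch, had 14.9 and 1.90 CPM at WT d0 and 3.77 and 3.78 CPM at AMPK-KO d0. At d8 it had 23.7 and 9.47 CPM in WT cells and 14.7 and 4.27 CPM in AMPK-KO cells. The 2 WT d0 libraries lay on either side of the AMPK-KO pair, and the log2 fold change of -1.16 ± 0.96 (adjusted p = 0.549) turned to 0.98 without WT d0 replicate 1. At d8 it was -0.80 ± 0.94 (adjusted p = 0.657, edgeR). *Smad7*, which also blocks TGF-beta and activin receptors, had 34.5 and 19.8 CPM at WT d0 against 31.3 and 26.2 CPM, and 64.4 and 41.4 CPM at WT d8 against 51.0 and 19.6 CPM. Its groups overlapped on both days, with log2 fold changes of 0.08 ± 0.47 (adjusted p = 0.952) and -0.58 ± 0.47 (adjusted p = 0.511, edgeR). Same-numbered d8 libraries both had less *Smad6* and *Smad7* in AMPK-KO cells, and with the replicate number as a block neither was called. Of 6 further intracellular and membrane inhibitors, 5 were tested and none was called on either day. The lowest adjusted p among them was that of *Smurf1*, a ubiquitin ligase for BMP SMADs, at 0.169 at d0 (-0.79 ± 0.28) and 0.186 at d8 (-0.71 ± 0.28, edgeR). None of the 5 tested of 8 BMP target factors and bone genes was called either, and the lowest adjusted p was 0.136 for *Hey1* at d0 (-2.29 ± 0.72) and 0.287 for *Atoh8* at d8 (-1.73 ± 0.87, edgeR).

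The ID genes, readouts of BMP signalling, were lower at AMPK-KO d0 in the measured values of *Id1* and *Id3*, but no ID gene passed the test. *Id3* had 53.9 and 45.1 CPM at WT d0 and 2.41 and 14.5 CPM at AMPK-KO d0, with no overlap. Its log2 fold change was -2.54 ± 1.07, with an unadjusted p of 0.0487 and an adjusted p of 0.238 (edgeR), and it was -1.78 without AMPK-KO d0 replicate 1 and -4.38 without replicate 2. At d8 it had 76.3 and 17.0 CPM in WT cells and 33.6 and 7.09 CPM in AMPK-KO cells, groups that overlapped (-1.19 ± 1.02, adjusted p = 0.531, and 0.28 without WT d8 replicate 1). Same-numbered d8 libraries both had less *Id3* in AMPK-KO cells, and with the replicate number as a block the d8 value was -1.19 (adjusted p = 0.494, edgeR).

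*Id1* had 20.4 and 18.2 CPM at WT d0 against 8.00 and 13.2 CPM at AMPK-KO d0, which did not overlap (log2 fold change -0.86 ± 0.50, adjusted p = 0.383, edgeR). At d8 its 41.2 and 15.9 CPM in WT cells enclosed the 33.9 and 18.7 CPM of AMPK-KO cells (-0.12 ± 0.49, adjusted p = 0.914, edgeR). *Id2* overlapped on both days, with 24.1 and 48.2 CPM against 19.9 and 37.3 CPM at d0 and 39.4 and 18.1 CPM against 33.3 and 37.9 CPM at d8. Its log2 fold change was -0.34 ± 0.48 (adjusted p = 0.751) and 0.31 ± 0.48 (adjusted p = 0.747, edgeR). Same-numbered d0 libraries both had less *Id2* in AMPK-KO cells, and with the replicate number as a block *Id2* was not called. In all, 6 of the 10 members did not overlap at d0, each of them lower and *Id4* among them at 5 and 1 against 0 and 0 counts, while 49.4% of genes tested did not overlap in either direction and 25.7% were lower. At d8, 4 members, *Id4* again included, were lower and 1 higher without overlap, against 57.9% of genes in either direction, 27.9% lower and 30.0% higher. With 2 libraries a group, an exact two-sided permutation test of a single gene cannot go below p = 0.333. Over the 9 members tested the median was -1.16 for d0 and -0.80 for d8 on the log2 scale, against -0.00 and 0.04 over all genes.

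**Figure D3:**
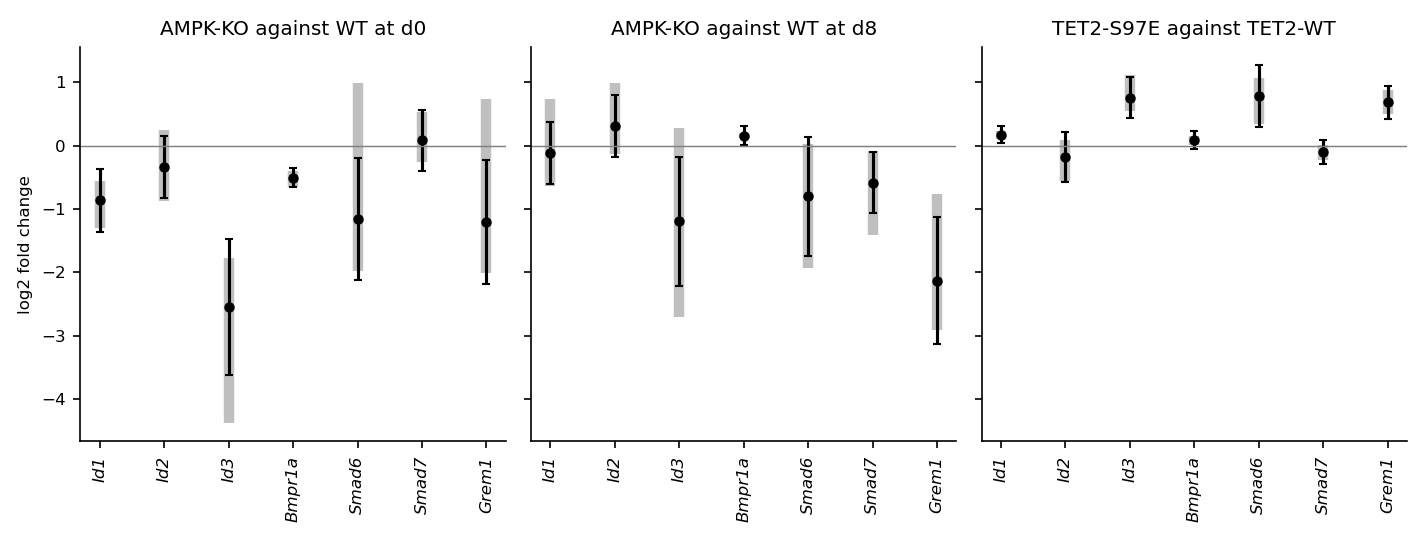
Log2 fold changes of the 7 members that were above the floor in all groups, in 3 comparisons. Points are the fit over all libraries with bars of 1 SE, and grey bands show the lowest and highest value when each library is left out in turn. The bands of *Id2*, *Smad6*, *Smad7* and *Grem1* cross 0 at d0, those of *Id1*, *Id2*, *Id3* and *Smad6* at d8, and those of *Id2* and *Smad7* for TET2-S97E, and the other bands stay on one side of 0.

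The partners of the ID proteins were listed as 7 E-protein and MyoD-family genes, 6 of them tested. *Myog* fell by 5.36 ± 0.68 on the log2 scale in AMPK-KO cells at d0 (adjusted p = 0.0116) and *Myod1* by 3.29 ± 0.45 (adjusted p = 0.0147, edgeR), and none of the 6 was called at d8, where *Myog* had the lowest adjusted p (-1.42 ± 0.50, adjusted p = 0.155, edgeR). With the replicate number as a block *Myod1* was called lower at d8 (-0.92, adjusted p = 0.0488, edgeR). *Myod1* had 1606 and 2450 counts at WT d0 and 151 and 291 at AMPK-KO d0. By d8 WT libraries held 2612 and 3508 counts of it, against 1425 and 2379 counts in AMPK-KO cells. The summed level of 10 muscle markers was 2249 and 3277 CPM at WT d0 against 1497 and 1926 CPM at AMPK-KO d0. At d8 the muscle sums overlapped, with 6479 and 8213 CPM in WT cells against 2684 and 7611 CPM in AMPK-KO cells. Sums of adipocyte and of smooth muscle markers overlapped between the genotypes on both days, while those of fibroblast markers did not. The summed level of 6 fibroblast markers was 665 and 311 CPM at WT d0 against 157 and 173 CPM at AMPK-KO d0, and 1869 and 3740 CPM against 440 and 597 CPM at d8. From 4 to 5 of these 6 markers were above 3 counts, *Col1a1* or *Dcn* was the most abundant, and *Thy1* was at 0 in all 8 libraries. Their part in the fall of *Bmp4*, *Nog*, *Fst* and *Chrdl1* was not tested.

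The comparison of d8 with d0 asked what changed by day 8 in low serum. In WT cells none of the 9 members tested was called, while 12.4% of all genes were (edgeR), a share that itself fell to 2 genes or fewer without WT d0 replicate 2 or either WT d8 library. No member had an unadjusted p under 0.05, and DESeq2 called none either. *Smad7* and *Bmpr1a* were higher at d8 without overlap, with log2 fold changes of 0.96 ± 0.48 (adjusted p = 0.220) and 0.12 ± 0.15 (adjusted p = 0.633, edgeR). Non-overlap held for 61.5% of all genes in either direction and for 31.3% in the higher direction. *Nog* had 2.22 and 3.74 CPM at d0 and 8.59 and 3.52 CPM at d8, values that overlapped (1.02 ± 0.60, adjusted p = 0.314). *Bmp4* had a log2 fold change of 0.25 ± 0.96 (adjusted p = 0.888), which became 3.32 with an adjusted p of 0.0113 without WT d0 replicate 1 and -0.64 without WT d0 replicate 2 (edgeR).

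In AMPK-KO cells 1 of the 9 members, *Bmpr1a*, was called from d0 to d8, against 9.76% of all genes in either direction and 4.81% higher, which fell to 1 gene or fewer without either AMPK-KO d0 library. It rose by 0.78 ± 0.15 on the log2 scale (adjusted p = 0.0284, edgeR). The call was lost without AMPK-KO d0 replicate 1 (0.64, adjusted p = 0.197) or replicate 2 (0.92, 0.0779), without AMPK-KO d8 replicate 1 (0.0741) or replicate 2 (0.110) and without WT d8 replicate 1 (0.0648) or replicate 2 (0.0654). *Id1* stood at 8.00 and 13.2 CPM at d0 and 33.9 and 18.7 CPM at d8 without overlap, and its log2 fold change of 1.31 ± 0.50 had an unadjusted p of 0.0339 and an adjusted p of 0.142 (edgeR). Besides these 2 genes, *Smad6* was higher and *Bmp4*, at 0 to 2 counts, lower without overlap, in all 3 members higher and 1 lower, against 59.1% of all genes in either direction, 30.2% higher and 28.9% lower.

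Other pathway genes were called between d0 and d8. In WT cells 9 of the 59 tested were higher and 2 lower, where 12.4% of all genes were called, and in AMPK-KO cells 9 were higher and none lower, where 9.76% were. All 11 calls in WT cells were lost without WT d0 replicate 2 or either WT d8 library, and all 9 in AMPK-KO cells without either AMPK-KO d0 library. Their median log2 fold change was 0.51 and 0.31, against 0.01 and 0.02 over all genes. The ligands *Bmp8a* (5.58 ± 0.96, adjusted p = 0.0169) and *Gdf5* (4.08 ± 0.88, adjusted p = 0.0307, edgeR) rose in WT cells. The hemojuvelin co-receptor gene *Hfe2* rose by 4.81 ± 0.67 in WT and 7.84 ± 0.83 in AMPK-KO cells (adjusted p = 0.0143 and 0.0179), *Rgma* by 1.38 ± 0.28 and 1.80 ± 0.29 (0.0261 and 0.0222) and the type II receptor gene *Bmpr2* by 0.64 ± 0.17 and 0.78 ± 0.17 (0.0496 and 0.0362). The antagonist *Chrd*, chordin, rose by 2.36 ± 0.41 and 2.73 ± 0.42 (adjusted p = 0.0172 and 0.0217, edgeR). *Myog* rose in both, by 3.80 ± 0.56 and 7.74 ± 0.72 (0.0143 and 0.0179). *Myod1* rose by 3.01 in AMPK-KO cells (adjusted p = 0.0217, edgeR), and *Tcf3*, an E protein, fell by 0.88 ± 0.20 in WT cells (0.0334). None of these changes was called as different between the genotypes by edgeR, which called 0 of 14329 genes for such a difference. The absence of a call therefore cannot show that the genotypes responded alike. The activin and TGF-beta branch gave 1 higher and 1 lower of 15 tested in WT cells, the receptor *Tgfbr2* (1.40 ± 0.36, adjusted p = 0.0487, and 0.0567 with the replicate number as a block) and the latent TGF-beta binding protein *Ltbp1* (-0.86 ± 0.16, adjusted p = 0.0187), and 1 higher in AMPK-KO cells, the ligand *Tgfb3* (2.03 ± 0.42, adjusted p = 0.0325, edgeR). The block added *Bmper* (1.80, adjusted p = 0.0321) and *Chrdl1* (5.16, adjusted p = 0.0366) as higher in WT cells and *Ltbp1* as lower in AMPK-KO cells (-0.55, adjusted p = 0.0489, edgeR).

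The knock-in comparison asked whether TET2-S97E alters expression where AMPK is absent. None of the 7 members tested was called by edgeR or DESeq2, while edgeR called 6.98% of 13433 genes. *Id3* and *Grem1* had an unadjusted p under 0.05. *Id3* had 21.7, 29.8, 23.7 and 53.3 CPM in TET2-WT libraries and 45.2, 60.4, 35.4 and 76.4 CPM in TET2-S97E libraries. The genotypes overlapped through TET2-WT clone 2 replicate 2. The log2 fold change was 0.76 ± 0.32 (unadjusted p = 0.0412, adjusted p = 0.192, edgeR), and with counts summed per clone it was 0.75 (adjusted p = 0.396). Without that library the value was 1.12 with an adjusted p of 0.0373, and libraries of a clone are not independent lines.

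*Grem1* had 255, 214, 440 and 368 CPM in TET2-WT libraries and 386, 481, 485 and 700 CPM in TET2-S97E libraries. Both TET2-WT clone 1 libraries were the lowest of the 8, and TET2-WT clone 2 replicate 1 reached into the TET2-S97E range. The log2 fold change was 0.68 ± 0.26 (unadjusted p = 0.0251, adjusted p = 0.147, edgeR), and with counts summed per clone it was 0.73 (adjusted p = 0.557). The other members gave 0.79 ± 0.49 for *Smad6*, 0.17 ± 0.14 for *Id1*, 0.08 ± 0.14 for *Bmpr1a*, -0.10 ± 0.19 for *Smad7* and -0.17 ± 0.39 for *Id2*, with adjusted p from 0.373 to 0.842. No member was free of overlap between the genotypes, against 15.3% of genes tested. The median log2 fold change was 0.17 over the 7 members and 0.01 over all genes.

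Of the 82 other genes, 54 were tested in the knock-in table and 4 (against 6.98% of all genes in either direction) were higher in TET2-S97E, none lower, with libraries of a clone treated as replicates. They were *Myog* (4.61 ± 1.04, adjusted p = 0.0307), *Myod1* (2.498 ± 0.65, adjusted p = 0.0496), *Hfe2* (4.22 ± 0.86, adjusted p = 0.0219) and *Rgma* (0.80 ± 0.20, adjusted p = 0.0405, edgeR). With counts summed per clone none of the 4 was called (adjusted p from 0.325 to 0.440), nor was any of the 15126 genes then tested, and with clone as a random effect in limma only *Myog* was (adjusted p = 0.0382). With the replicate number as a block, *Myod1* (adjusted p = 0.0718) and *Rgma* (0.0583, edgeR) were no longer called. Without both libraries of TET2-S97E clone 1, *Myod1* gave 0.86 (adjusted p = 0.316), and the other 3 calls were lost as well. All 4 calls were lost without TET2-S97E clone 1 replicate 1, either library of TET2-WT clone 1 or TET2-WT clone 2 replicate 1. *Myod1* had 7.14, 10.4, 18.03 and 26.1 CPM in TET2-WT libraries and 147, 144, 27.5 and 29.1 CPM in TET2-S97E libraries. The genotypes did not overlap, but TET2-S97E clone 2 lay just above TET2-WT clone 2. The lists of ligands, SMADs, antagonists, inhibitors, BMP targets and TGF-beta genes held no called gene, and the lowest adjusted p among them was 0.0628 for *Smad2* (0.50 ± 0.14, edgeR). With the replicate number as a block, *Gdf11*, a ligand of the activin branch, was called higher (0.55, adjusted p = 0.0402, edgeR). The median over the 54 genes was 0.06.

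The 2 clones of TET2-S97E differed from each other in 2 of the 7 members, *Id2* and *Smad6*, where 6.17% of 14459 genes were called, 3.35% higher and 2.82% lower in clone 2. *Id2* had 51.6 and 40.0 CPM in clone 1 and 18.3 and 11.8 CPM in clone 2. All 4 TET2-WT libraries, at 30.5 to 38.6 CPM, lay between the 2 clones. The log2 fold change of clone 2 against clone 1 was -1.61 ± 0.24 (adjusted p = 0.00498, edgeR) and the call held without any 1 of the 8 libraries.

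*Smad6* went the other way, with 2.67 and 4.58 CPM in clone 1 and 9.89 and 13.9 CPM in clone 2 of TET2-S97E. Clone 2 was above all other knock-in libraries, since TET2-WT gave 2.98, 3.48, 4.94 and 6.58 CPM. The log2 fold change was 1.70 ± 0.33 (adjusted p = 0.0185, edgeR). It was no longer called without TET2-S97E clone 1 replicate 1 (adjusted p = 0.0829), TET2-S97E clone 2 replicate 2 (0.0812) or either library of TET2-WT clone 1 (0.0538 and 0.0554). *Smad7* had 12.3 and 12.1 CPM in clone 1 and 18.5 and 19.3 CPM in clone 2, and did not pass (0.63 ± 0.17, adjusted p = 0.0650, edgeR). With the replicate number as a block *Smad7* was called (adjusted p = 0.0389, edgeR). Without TET2-S97E clone 1, *Id2* was called lower in TET2-S97E than in TET2-WT (-1.20, adjusted p = 0.0256), and without TET2-S97E clone 2 its value was 0.41 (adjusted p = 0.205, edgeR).

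The clones of TET2-WT were not called as different in any of the 7 members by edgeR, which called 0.858% of genes, though *Grem1* and *Smad6* had an unadjusted p under 0.05. The member with the lowest adjusted p was *Grem1*, at 0.78 ± 0.22 on the log2 scale (adjusted p = 0.126, edgeR), which DESeq2 called (0.79, adjusted p = 0.0127). *Grem1*, *Smad6* and *Smad7* were higher in clone 2 and *Id2* lower without overlap in both genotypes, and in TET2-S97E *Bmp4* was higher too, at 2 and 1 against 0 and 0 counts. Non-overlap between clones held for 54.0% of genes in TET2-WT (26.0% higher, 28.0% lower) and 48.2% in TET2-S97E (26.3% higher, 21.9% lower), and clone numbers carry no meaning across genotypes.

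Other genes also set TET2-S97E clone 2 apart from clone 1. Of 56 list genes tested, 6 were higher and 3 lower, where 6.17% of all genes were called, 3.35% higher and 2.82% lower. Without either TET2-S97E clone 1 library, either TET2-S97E clone 2 library or either TET2-WT clone 1 library, 2 to 5 of the 9 stayed called, fewest without TET2-S97E clone 1 replicate 1, and *Hey1* and *Myod1* stayed called without any 1 of the 8 libraries. *Hey1*, a Notch and BMP target, fell by 3.34 ± 0.41 (adjusted p = 0.00261), *Myod1* by 2.36 ± 0.23 (adjusted p = 0.00117) and *Chrd* by 0.95 ± 0.23 (adjusted p = 0.0435). The ligand *Bmp8a* rose by 4.63 ± 0.83 (adjusted p = 0.0126) and the activin subunit gene *Inhba* by 1.57 ± 0.37 (adjusted p = 0.0400, edgeR). The co-receptor gene *Rgmb* and the modulators *Bmper* and *Fstl1* rose as well. In TET2-WT, 2 of 56 were higher in clone 2 and none lower, *Myod1* (1.32 ± 0.23, adjusted p = 0.0388) and *Tgfb2* (1.82 ± 0.30, adjusted p = 0.0338, edgeR), where 0.858% of all genes were called. Both calls were lost without either TET2-WT clone 1 library (adjusted p = 0.202 and 0.333 for *Myod1*, 0.196 and 0.486 for *Tgfb2*), that of *Myod1* also without TET2-WT clone 2 replicate 2 (0.171) and that of *Tgfb2* without replicate 1 (0.0508, edgeR).

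**Figure D4:**
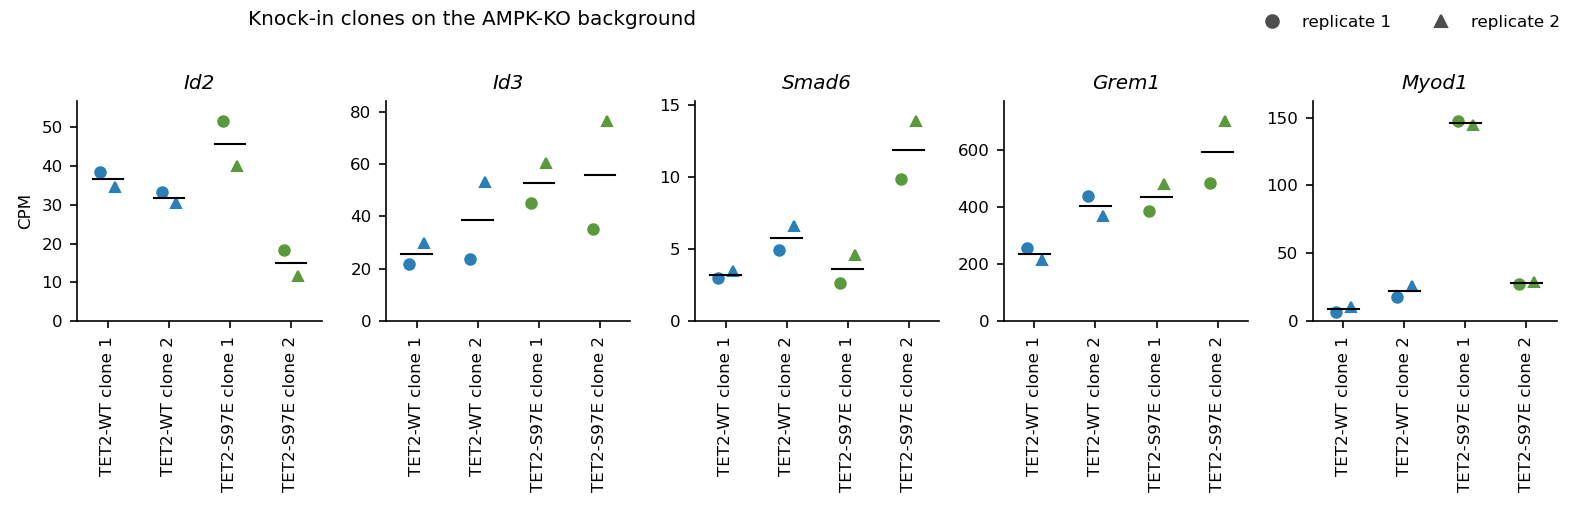
CPM of *Id2*, *Id3*, *Smad6*, *Grem1* and *Myod1* in the 8 knock-in libraries by clone, each on its own axis from 0. Circles and triangles are replicates 1 and 2 and bars are clone means. *Id2* is lowest and *Smad6* highest in TET2-S97E clone 2, while *Myod1* is highest in TET2-S97E clone 1.

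Cell type markers differed between the same clones. The 6 adipocyte markers summed to 353 and 511 CPM in TET2-S97E clone 2 and to 104 to 134 CPM in the other 6 knock-in libraries. *Lpl* was the most abundant in clone 2, *Cebpa* in the others, 4 of 6 markers were above 3 counts in clone 2, and *Plin1* was at 0 in it. The 10 muscle markers summed to 6233 and 4071 CPM in TET2-S97E clone 1, 2136 and 1326 CPM in clone 2 and 1274 to 1575 CPM in TET2-WT. The 5 smooth muscle markers, 3 to 5 of them above 3 counts and *Acta2* by far the most abundant, summed to 1100 to 2113 CPM in TET2-S97E and 431 to 770 CPM in TET2-WT, with *Cnn1* at 0 in 4 of the 8 libraries. The 6 fibroblast markers summed to 1543 and 1037 CPM in TET2-S97E clone 2 against 533 and 605 CPM in clone 1, and to 681 and 935 CPM in TET2-WT clone 2 against 275 and 261 CPM in clone 1. From 5 to 6 of them were above 3 counts, *Dcn* was the most abundant in all but TET2-S97E clone 1 replicate 2, where *Postn* was, and *Thy1* was at 0 in 5 of the 8 libraries. The clone with the higher sum in each genotype was also the one higher in *Smad6* and *Grem1*. The part of these markers in the *Id2*, *Smad6*, *Id3* and *Grem1* differences was not tested.

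Likeness across libraries was read from Pearson correlations of log2(CPM + 1), taking the smaller of the values over the 8 libraries of each table, among the 13078 genes tested in both. *Smad6* was most like *Pdgfrb* (0.93), *Foxo1* (0.92) and *Col12a1* (0.91), and *Id3* most like *Gpsm1* (0.87) and *Mex3a* (0.85) among the genes reported here. *Smad7* was most like *Ccn2* (0.87), *Tnfrsf1b* (0.86) and *Npy1r* (0.85), and *Grem1* most like *Nfix* (0.85), *Fat4* (0.84) and *P2rx7* (0.84). *Bmpr1a* was most like *Pja2* (0.85), *Spag9* (0.85) and *Snx13* (0.84), *Id2* most like *Lingo1* (0.85), *Ralgps2* (0.78) and *Cyth2* (0.77), and *Id1* most like *Lonrf1* (0.77), *Shf* (0.77) and *Dnajb5* (0.74). No member was among the 3 genes most like another. The libraries of a table share groups and clones, so these values describe common shifts between groups and between replicates.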

How the data were processed

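Per the study's methods, the authors sequenced libraries from total RNA in pairs of reads, trimmed with Trim Galore (0.4.5), aligned with STAR (2.5.3a) to GRCm38 and counted per GENCODE gene with featureCounts (1.5.3). Strand and multiple mapping settings are not given in the sources used here. The deposited values are raw read counts, in 1 table for WT and AMPK-KO and 1 for the knock-ins. Counts were normalized by TMM within a table and tested with edgeR (4.0.16, R 4.3.3), whose quasi-likelihood test used all 8 libraries of a table and Benjamini-Hochberg adjustment over all genes tested, with a threshold of 0.05. Genes low in counts were left out by edgeR's default filter. Same-numbered WT and AMPK-KO libraries deviated together (correlations of 0.13 to 0.39 across genes over the 6 pairs of groups). A fit with the replicate number as a block is therefore given beside results whose call it changes. For list genes compared between clones, its effect is given only as numbers of genes called, in the closing section. The genotype fit of the knock-in table treated libraries as replicates, and a second fit had a term per clone. DESeq2 (1.42.0), limma (3.58.1), other filters and left-out libraries served as alternatives. In simulated data for AMPK-KO against WT at d0, edgeR recovered 154 (77%) of 200 genes changed 4-fold. Beside these 154 it made 16 false calls, over 14329 genes. The changed genes were drawn only from those above a minimum mean level, and libraries were simulated as independent. The recovery thus does not cover the rarest genes or replicates that deviate together.

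The 10 members and the 8 lists of 82 related genes were chosen with earlier results of these data known. Named were all members, up to 3 called genes of a list by adjusted p or the lowest where none was called, the 3 genes most alike, and markers by summed CPM. Intervals cover counting error only. A few genes that these rules select are not reported here.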

Additional observations from a re-analysis of the deposited data

How the results depend on the processing

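Of 55 member fold changes, 440 values with a library left out and 345 under other alternatives were computed, of which 34 and 4 changed sign. Without a filter on low counts, the member counts above moved to 5 (AMPK-KO at d0), 4 (AMPK-KO at d8), 1 (d8 in WT), 4 (d8 in AMPK-KO), 1 (difference between days) and 1 (TET2-WT clones). The cause was not tested. With at least 10 counts in every library, 0 members were called for AMPK-KO at d0 and 0 at d8, because *Bmp4* and *Nog* were no longer tested. With the 2 groups alone in the fit, the counts were 1 at d0, where *Bmp4* was no longer called, and 0 for d8 in AMPK-KO. DESeq2 gave 2 for d8 in AMPK-KO, where *Id1* had an adjusted p of 0.0496, 1 for TET2-WT clones and 3 for AMPK-KO at d0, where *Bmpr1a* had 0.0324. For TET2-S97E, leaving out TET2-S97E clone 1 gave 1, and counts summed per clone or limma with clone as a random effect gave 0. Leaving out TET2-S97E clone 2 turned *Id2* to 0.41 and *Smad6* to -0.31, and leaving out clone 1 turned *Smad7* to 0.16.

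Leaving out 1 library gave 0 to 2 called members for AMPK-KO at d0 and at d8, 0 to 1 for d8 in WT, d8 in AMPK-KO and TET2-S97E, and 1 to 2 for TET2-S97E clones. Log2 fold changes that changed sign then ranged as follows. For AMPK-KO at d0, *Id2* ranged from -0.88 to 0.25, *Smad6* from -1.98 to 0.98, *Smad7* from -0.26 to 0.53 and *Grem1* from -2.003 to 0.74. At d8, *Id1* ranged from -0.63 to 0.74, *Id2* from -0.13 to 1.00, *Id3* from -2.70 to 0.28 and *Smad6* from -1.93 to 0.026. From d0 to d8 in WT, *Id1* ranged from -0.30 to 1.07, *Id2* from -1.02 to 0.27, *Id3* from -1.57 to 0.60, *Bmp4* from -0.64 to 3.32 and *Grem1* from -0.97 to 2.35. In AMPK-KO, *Id2* ranged from -0.087 to 0.85, *Id3* from -0.26 to 3.09 and *Smad7* from -0.54 to 0.80. For TET2-S97E, *Id2* ranged from -0.55 to 0.10 and *Smad7* from -0.22 to 0.0054. Between TET2-WT clones, *Id1* ranged from -0.21 to 0.18, *Id3* from -0.13 to 1.03 and *Bmpr1a* from -0.17 to 0.23, and between TET2-S97E clones *Id1* from -0.22 to 0.091, *Id3* from -0.57 to 0.49 and *Bmpr1a* from -0.21 to 0.21.

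With the replicate number as a block, the member counts were 2 for AMPK-KO at d0, 2 at d8, 1 for d8 in AMPK-KO and 3 for TET2-S97E clones, where *Smad7* was added (adjusted p = 0.0389, edgeR) and *Id3* turned to -0.0022. The block changed no other call of a member. Of the listed genes, 8 rather than 7 were then called for AMPK-KO at d0, 10 rather than 7 at d8, 7 rather than 2 of 56 between TET2-WT clones and 13 rather than 9 between TET2-S97E clones, and over all genes 677 rather than 124 and 1540 rather than 892 between these clones. Deviations of same-numbered knock-in libraries correlated at -0.07 to 0.55 across genes, and nothing in the labels ties the numbers to a shared day or culture. Over all genes, leaving out 1 library moved the number called from 505 to between 17 and 613 for AMPK-KO at d0, from 766 to between 107 and 902 at d8, from 938 to between 304 and 1092 for TET2-S97E and from 892 to between 472 and 1014 for TET2-S97E clones, and from 124 to 2 or fewer for TET2-WT clones without either TET2-WT clone 1 library.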
